A study of Mus musculus with 4 samples.

Results

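The mitochondrial ribosomal protein genes were taken as every gene named Mrpl or Mrps plus a number, with an optional letter, on probe sets that the array annotation assigns to 1 gene. They came to 77 genes on 85 probe sets, of 19938 genes measured in all. By the place of their products, 50 belong to the large subunit and 26 to the small one, and the last is Mrps36, whose product is a subunit of the 2-oxoglutarate dehydrogenase complex and not of the ribosome. Mrps30 and Mrps18a were counted with the large subunit, where their products sit in spite of the name. Mrpl53 shared its only probe set with Ccdc142 and was left out.

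The mitochondrial ribosome translates the few messenger RNAs of the mitochondrial genome, all of which encode core subunits of the respiratory chain and ATP synthase. Its RNAs are made inside the organelle, while all of its proteins are encoded in the nucleus and imported, so the 2 sets of nuclear genes, ribosome and respiratory chain, supply parts of one production line. Some of its proteins have counterparts in the bacterial ribosome and others are found only in mitochondria. The dermal papilla is a mesenchymal cell cluster of the hair follicle that signals to the epithelium above it, and Sox2 is a transcription factor made in the papilla of some hair types.

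Cells of the dermal papilla had been sorted by flow cytometry from mouse skin at postnatal day 5, as cells positive for both Sox2GFP, a fluorescent reporter of Sox2, and integrin alpha 9. The groups were Sox2 Het, the controls, and Sox2 cKO, with the gene ablated in the papilla, each with 2 arrays labelled biological replicates 1 and 2. Total RNA was amplified and hybridised to a whole-transcript mouse gene array. The labels used here give no Cre driver, floxed allele, strain, sex or number of animals per sample, and the Het cells are no wild-type control, so a p-value covers only the spread between these arrays. In bulk RNA, fewer cells of a type and less RNA per cell cannot be told apart.

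The log base of the deposited values is not given and was taken as log2. Each value is relative to the median of that probe set over the 4 arrays. The values therefore show differences between arrays and carry no level of expression, background or depth. Sox2 itself measured 0.96 and 0.87 in the Het arrays and -0.87 and -0.94 in the cKO arrays; its difference was -1.81 ± 0.06 (SE; limma adjusted p = 0.345), so the targeted gene ran the way of the labels. The values over all probe sets were most spread in Het replicate 1 (SD 0.138) and cKO replicate 2 (SD 0.158), against 0.107 in Het replicate 2 and 0.112 in cKO replicate 1. Xist, the RNA of the inactive X chromosome, measured -4.08 and -0.85 in the Het arrays and 0.85 and 1.23 in the cKO arrays. Eif2s3y, a gene of the Y chromosome, measured 1.18 and 0.79 in the Het arrays and -0.87 and -0.79 in the cKO arrays. These sex-linked genes moved with the genotype, and their part in the results on the ribosome genes was not tested. The 16 dermal papilla markers, Sox2 among them, had array medians of 0.12 and -0.06 in Het and -0.07 and 0.05 in cKO. These medians cover markers that went both ways, 8 lower and 8 higher in cKO. Their differences ran from -1.81 for Sox2 to 1.08 for Ndnf. The 13 keratinocyte markers stood highest in Het replicate 2, with a median of 0.38, against -0.10, -0.04 and 0.03 in the other arrays (Het replicate 1, cKO replicate 1, cKO replicate 2), and 12 of the 13 were higher in replicate 2 and 12 lower in cKO. The 10 melanocyte markers were all higher in replicate 2, with a median difference of 0.14. The 9 Schwann cell and glial markers had the same highest and lowest arrays as the ribosome genes. Their medians were 0.091 and 0.012 for Het and -0.0067 and -0.11 for cKO. Both cKO medians thus lay below both Het medians. In the ribosome genes the inner medians lay close together, at -0.015 for Het replicate 2 and -0.011 for cKO replicate 1. Of the 9 markers, 7 were lower in cKO and 7 lower in replicate 2. Among them Egr2 (-1.35 ± 0.23) and Fabp7 (-0.82 ± 0.08) had the lowest genotype differences, and S100b (-0.85 ± 0.21) and Pmp22 (-0.82 ± 0.12) the lowest replicate differences. The medians of the Merkel cell, endothelial, immune, muscle and adipocyte lists lay between -0.030 and 0.021 in each array. The 24 cell cycle genes stood lowest in cKO replicate 2, with a median of -0.24, against 0.02 and -0.01 in Het and 0.12 in cKO replicate 1. The part of these cell types and of the cell cycle in the results was not tested, and centred values do not show whether a cell type was absent.

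Promoters of the ribosome genes were read from RefSeq on mouse build GRCm38.p6, as windows of 300 bases from 250 before to 50 after the start of transcription. A window was found for 68 of the 77 genes, 74 windows in all. The following 5 are shown because they belong to the gene lowest in cKO against Het (Mrpl23), the lowest ones that hold a match to the ETS core among genes with 1 window (Mrps21 and Mrpl52), a gene whose start faces that of another ribosome gene (Mrpl46), and the gene highest in cKO (Mrps10). Capitals mark matches, on either strand, to the cores of the ETS factors (CCGGAAG), YY1 (AAGATGG) and NRF1 (CATGCGC). The windows are chr7:142532782-142533081 on the plus strand for Mrpl23, chr3:95871465-95871764 on the minus strand for Mrps21, chr14:54426659-54426958 on the plus strand for Mrpl52, chr7:78783040-78783339 on the minus strand for Mrpl46 and chr17:47368947-47369246 on the plus strand for Mrps10.
Mrpl23 promoter: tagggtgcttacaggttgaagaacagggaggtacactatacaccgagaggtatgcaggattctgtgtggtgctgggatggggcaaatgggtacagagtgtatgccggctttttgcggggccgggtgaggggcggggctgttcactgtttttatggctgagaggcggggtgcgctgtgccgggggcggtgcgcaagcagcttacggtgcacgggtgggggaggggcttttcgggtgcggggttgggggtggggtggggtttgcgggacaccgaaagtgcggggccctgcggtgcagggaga
Mrps21 promoter: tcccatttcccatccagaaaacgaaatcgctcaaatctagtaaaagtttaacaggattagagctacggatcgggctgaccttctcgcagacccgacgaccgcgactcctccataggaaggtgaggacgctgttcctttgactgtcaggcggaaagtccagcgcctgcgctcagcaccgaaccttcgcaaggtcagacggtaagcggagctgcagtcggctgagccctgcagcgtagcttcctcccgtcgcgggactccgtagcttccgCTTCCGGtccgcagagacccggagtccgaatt
Mrpl52 promoter: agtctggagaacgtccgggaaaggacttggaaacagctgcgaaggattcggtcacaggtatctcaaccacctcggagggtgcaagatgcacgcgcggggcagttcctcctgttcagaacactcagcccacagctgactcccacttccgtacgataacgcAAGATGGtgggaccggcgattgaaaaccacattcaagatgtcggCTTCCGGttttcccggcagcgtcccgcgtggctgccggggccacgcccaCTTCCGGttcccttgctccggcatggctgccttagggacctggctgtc
Mrpl46 promoter: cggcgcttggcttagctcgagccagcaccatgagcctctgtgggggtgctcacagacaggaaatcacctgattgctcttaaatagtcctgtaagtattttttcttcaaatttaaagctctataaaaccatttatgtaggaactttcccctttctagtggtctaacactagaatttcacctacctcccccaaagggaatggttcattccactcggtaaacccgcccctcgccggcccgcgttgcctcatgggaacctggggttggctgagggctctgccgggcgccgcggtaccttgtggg
Mrps10 promoter: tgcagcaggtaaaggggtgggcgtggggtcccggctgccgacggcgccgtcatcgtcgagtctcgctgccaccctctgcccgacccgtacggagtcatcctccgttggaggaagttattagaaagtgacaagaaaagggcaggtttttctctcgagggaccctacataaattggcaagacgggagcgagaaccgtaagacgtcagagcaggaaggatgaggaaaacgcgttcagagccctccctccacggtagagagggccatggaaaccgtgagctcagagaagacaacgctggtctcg

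In Mrps21 the single ETS match began at position 18 after the start. In Mrpl52 the ETS matches began at positions -47 and 2 and the YY1 match at -91. The windows of Mrpl23, Mrpl46 and Mrps10 held no match to these 3 cores, which says only that the letters are not in these windows. Of the 74 windows, 25 (33.8%) held the ETS core, against 12.1% of the 19177 windows of genes on the array and 8.86% of all 32851 windows. The YY1 core was found in 17.6% of the ribosome windows, against 6.25% of those of genes on the array and 6.34% of all. The NRF1 core was found in 10.8%, against 5.08% and 3.91%. The GC box (GGGCGG), whose matches are not marked above, was found in 52.7%, against 49.2% and 35.7%, and the E-box (CACGTG) in 9.46%, against 8.24% and 7.15%. The windows of the respiratory chain genes held the ETS core in 23.9%, the NRF1 core in 19.7% and the YY1 core in 14.1%. Those of the cytosolic ribosomal proteins held these cores in 33.9%, 16.1% and 7.14%. The median GC content was 58.5% in the ribosome windows and 57.3% in those of genes on the array.

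**Figure D1:**
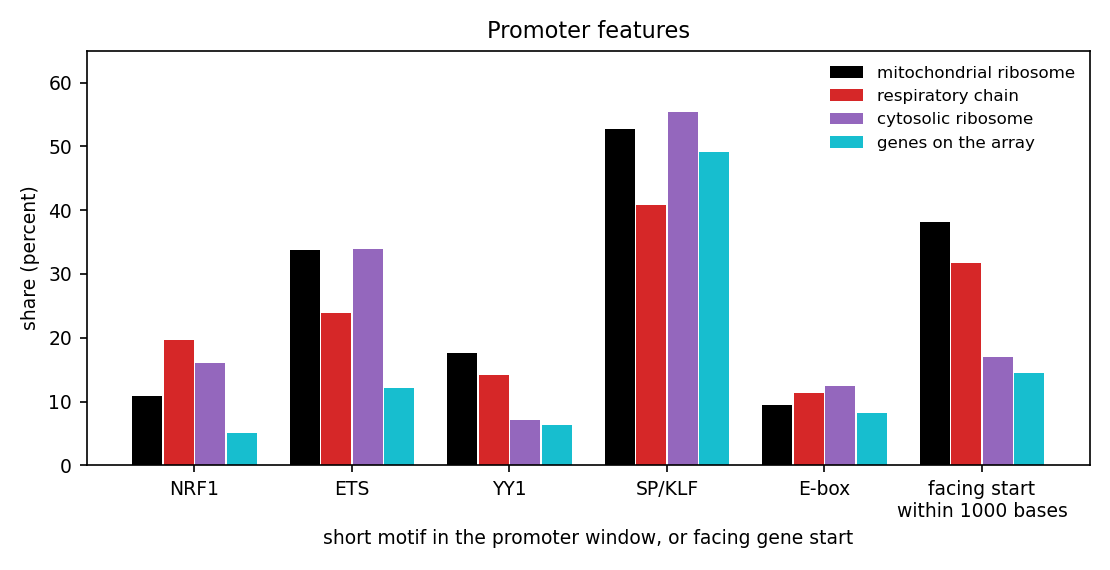
Share of promoter windows, in percent, that hold each short motif on either strand, and, at the right, share of genes whose start faces that of another gene within 1000 bases, for 4 sets of genes. The ETS core stands at 33.8% for the mitochondrial ribosome and 12.1% for genes on the array, and facing starts at 38.2% and 14.4%.

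The first comparison asked whether loss of Sox2 in the papilla went with other values of the mitochondrial ribosomal protein genes. Of the 77 genes, 54 (70.1%) were lower in cKO than in Het and 23 were higher, against 47.7% lower over all 19938 genes. The median difference, cKO minus Het, was -0.070 on the log2 scale, with quartiles at -0.17 and 0.0094, against a median of 0.0034 over all genes. No gene passed an adjusted p of 0.05 (limma with Benjamini-Hochberg adjustment over all genes; lowest adjusted p among the 77, 0.897), and none of the 19938 genes did either (0% called). At an unadjusted threshold of 0.05, 3 of the 77 were lower (3.9%, background 3.41%) and 2 were higher (2.6%, background 1.87%), which is near the share over all genes. In 20 genes (26%) both cKO arrays lay below both Het arrays, against 15.6% of all genes, and in 10 (13%) both lay above, against 17.8%. With limma's moderation left off, 3 of the 77 passed the unadjusted threshold and 0 the adjusted one.

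The median difference rested largely on 1 array. Without Het replicate 1 it was -0.0061, against -0.070 with all 4, and quantile normalization of the arrays brought it to -0.024, with 46 of 77 genes lower.

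**Figure D2:**
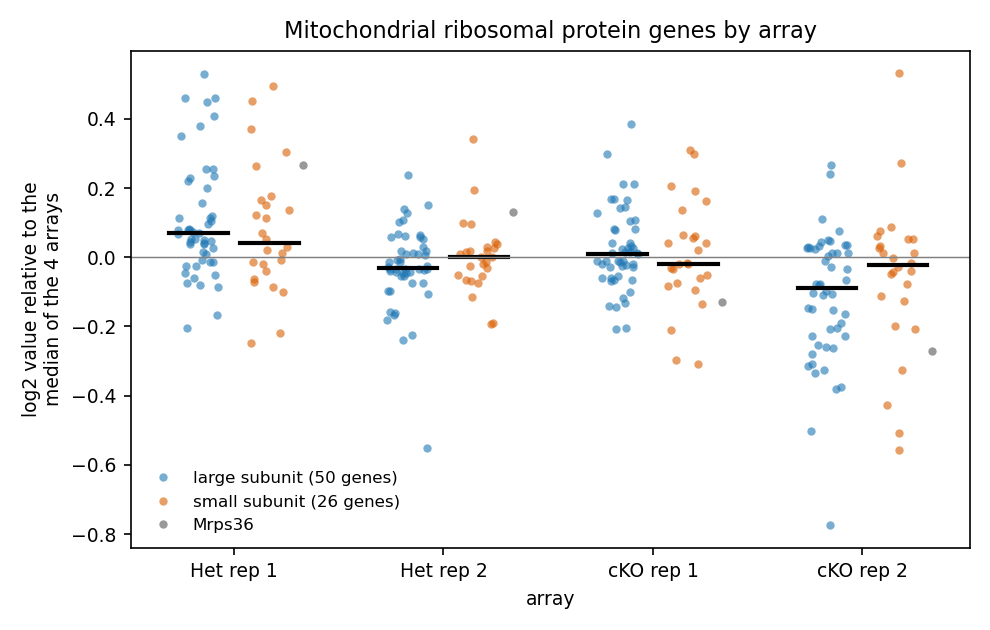
Log2 values of the 77 genes relative to each gene's median over the 4 arrays, 1 point per gene and array, coloured by ribosomal subunit, with bars at the medians of the large and small subunit genes. The medians of the large subunit are 0.069 and -0.030 for Het and 0.011 and -0.089 for cKO, and the points of every array spread to both sides of 0.

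Among the genes lower in cKO, Mrpl23, whose product lines the exit of the peptide tunnel, had the lowest difference. It measured 0.45 and -0.03 in Het replicates 1 and 2 and 0.03 and -0.77 in cKO replicates 1 and 2, a difference of -0.58 ± 0.36 (SE, n = 2 per group; 1.49-fold lower, adjusted p = 0.982). The groups overlapped, since cKO replicate 1 lay above Het replicate 2. Mrpl50, a large subunit protein found only in mitochondria, measured 0.46 and 0.01 in Het and -0.01 and -0.50 in cKO, a difference of -0.49 ± 0.25. Mrps21, a small subunit protein with a bacterial counterpart, measured 0.37 and 0.02 in Het and -0.02 and -0.56 in cKO, a difference of -0.48 ± 0.24. In both genes Het replicate 2 and cKO replicate 1 lay close together, and the distance between the groups came from the other 2 arrays.

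Mrpl13, whose product has a bacterial counterpart in the large subunit, measured 0.53 and 0.05 in Het and -0.05 and -0.20 in cKO, a difference of -0.42 ± 0.19. Mrps16, likewise of bacterial origin but in the small subunit, measured 0.12 and 0.10 in Het and -0.10 and -0.51 in cKO, a difference of -0.41 ± 0.16. Mrpl52, found only in mitochondria, measured 0.46 and 0.10 in Het and -0.10 and -0.15 in cKO, a difference of -0.41 ± 0.14. The groups did not overlap in these 3 genes, and 1 array stood apart in each: Het replicate 1 in Mrpl13 and Mrpl52, cKO replicate 2 in Mrps16. Mrpl12, the stalk protein that recruits translation factors, had the lowest adjusted p of the 77 genes. It measured 0.12 and 0.13 in Het and -0.12 and -0.15 in cKO, a difference of -0.26 ± 0.04 (adjusted p = 0.897). Here the arrays of a group lay close together and the groups apart. Mrpl55, with a difference of -0.17 ± 0.04, and Mrps36 were the other 2 lower genes past the unadjusted threshold. Mrps36 measured 0.27 and 0.13 in Het and -0.13 and -0.27 in cKO, a difference of -0.40 ± 0.08. Mrpl41 (-0.27 ± 0.14), found only in mitochondria, had groups that did not overlap, and so did Mrpl58 (-0.07 ± 0.04), which releases peptides from stalled ribosomes. Mrps12, the counterpart of the bacterial protein at the decoding site, had groups that overlapped (-0.29 ± 0.21): Het replicate 1 stood at 0.50, and the other 3 arrays between -0.13 and 0.03.

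Of the genes higher in cKO, Mrps10, a small subunit protein with a bacterial counterpart, had the highest difference. It measured -0.22 and -0.19 in Het and 0.19 and 0.53 in cKO, a difference of 0.57 ± 0.13 (1.48-fold higher, adjusted p = 0.934). Mrpl42, found only in mitochondria, measured 0.01 and -0.55 in Het and 0.30 and -0.01 in cKO, a difference of 0.41 ± 0.24. Its groups overlapped, while those of Mrps10 did not. Mrpl39, a mitochondria-specific protein of the large subunit, measured -0.08 and -0.18 in Het and 0.08 and 0.24 in cKO, a difference of 0.29 ± 0.08. Mrpl1, the protein of the stalk beside the exit site of transfer RNA, measured -0.21 and -0.04 in Het and 0.04 and 0.27 in cKO, a difference of 0.28 ± 0.11. Mrps2 (0.25 ± 0.10) and Mrpl19 (0.18 ± 0.08), both with bacterial counterparts, followed. Except in Mrpl42 the groups did not overlap in these 6 genes, and Mrps10 and Mrpl39 were the 2 past the unadjusted threshold. In Mrps10, Mrpl39 and Mrpl1 cKO replicate 2 was the highest array, the reverse of Mrpl23, Mrpl50 and Mrps21, where it was the lowest.

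**Figure D3:**
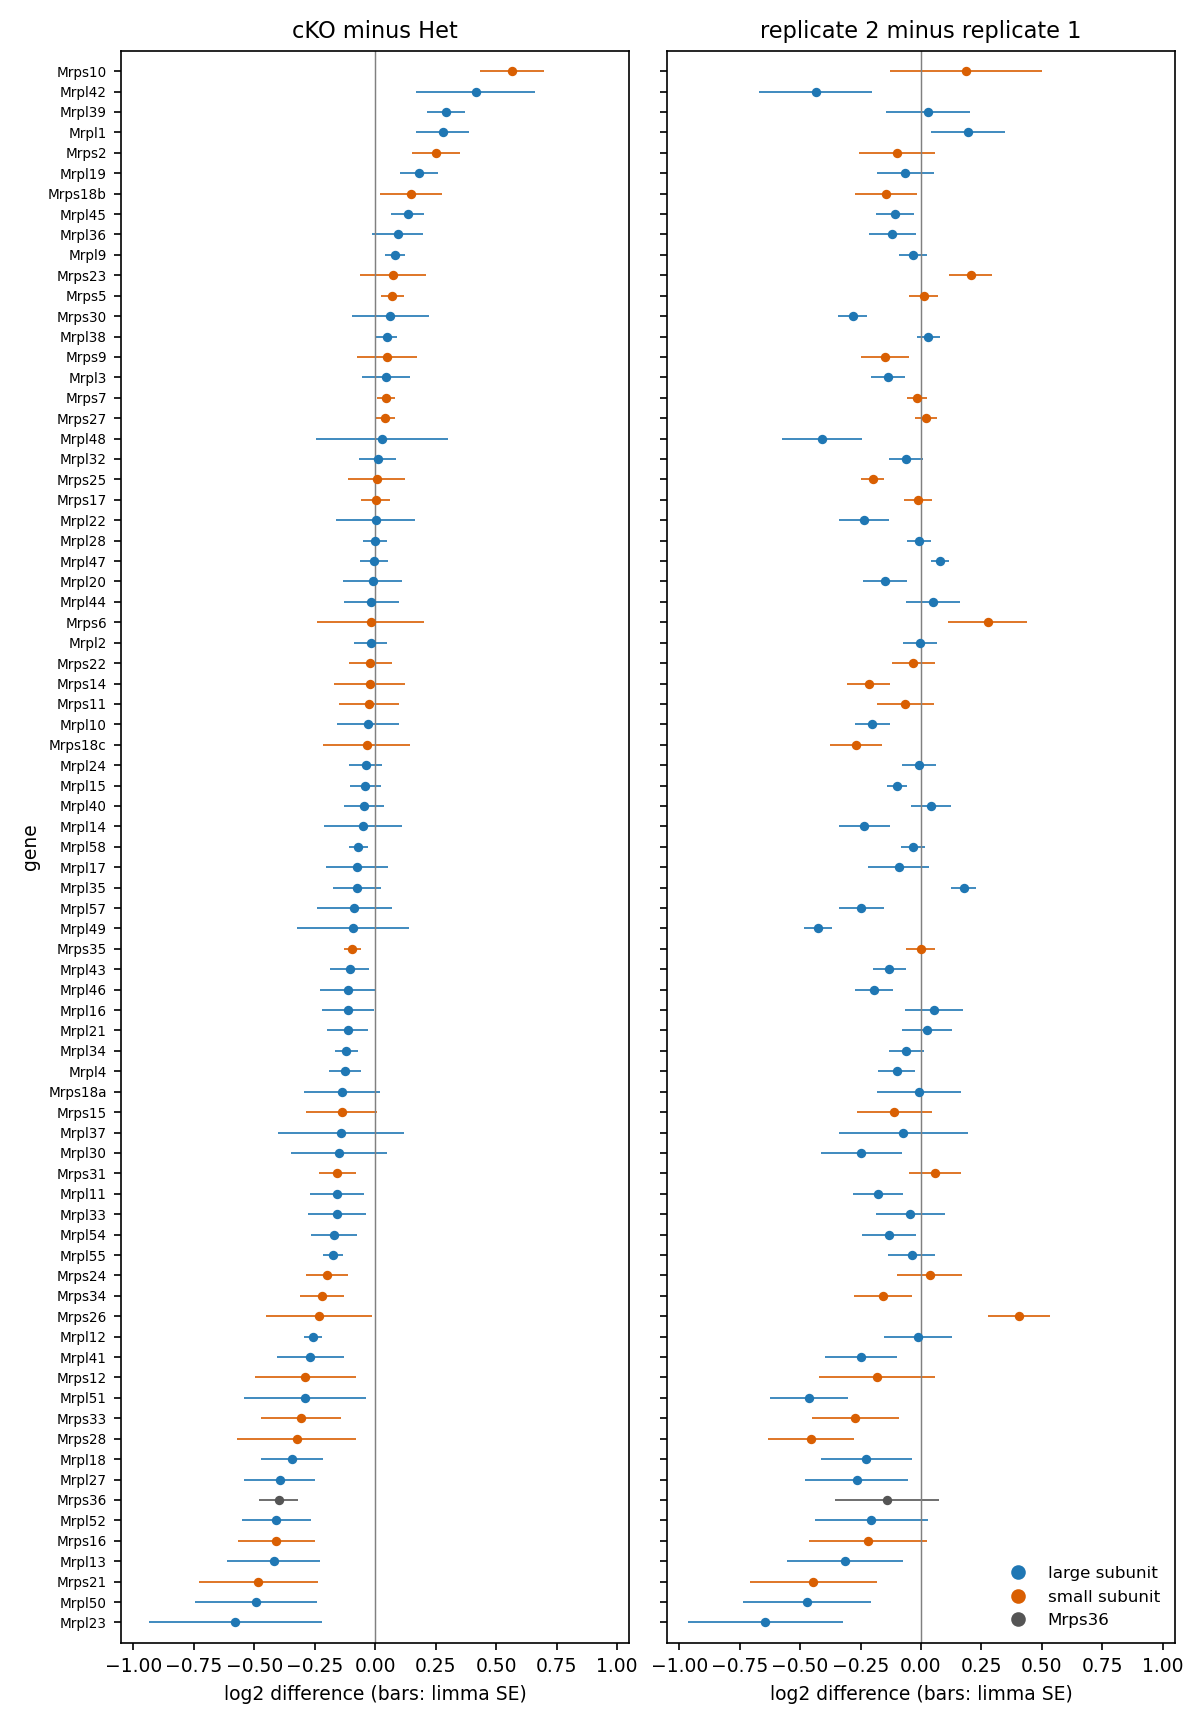
Log2 differences of the 77 genes with limma standard errors, cKO minus Het at the left and replicate 2 minus replicate 1 at the right, 1 row per gene in the order of the left panel, coloured by subunit. At the left 54 points lie below 0 and at the right 60, and Mrps10 and Mrpl23 lie at the ends of the left panel with 0.57 and -0.58.

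The second comparison set the replicate numbers against each other, over both genotypes, as a measure of how far arrays of the same label differ. In replicate 2, 60 of the 77 genes (77.9%) were lower and 17 were higher, against 46.9% lower over all genes. The median difference, replicate 2 minus replicate 1, was -0.10, against 0.0049 over all genes. With the same limma test no gene passed the adjusted threshold (lowest adjusted p 0.515), as over all genes (0% called). Unadjusted, 3 were lower (3.9%, background 5.35%) and 2 higher (2.6%, background 2.59%), no more than the share over all genes. In 19 genes (24.7%) both replicate 2 arrays lay below both replicate 1 arrays, against 17.8% of all genes, and in 4 (5.19%) above, against 21.4%. The difference between arrays of the same label was therefore at least as large in the median as that between genotypes. With limma's moderation left off, 2 of the 77 passed the unadjusted threshold and 0 the adjusted one. Without Het replicate 2 the median was -0.15, and quantile normalization brought it to -0.064.

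Mrpl23 was also the lowest gene in this comparison, at -0.64 ± 0.32, followed by Mrpl50 at -0.47 ± 0.26, Mrpl51 at -0.46 ± 0.16, Mrps28 at -0.45 ± 0.18, Mrps21 at -0.44 ± 0.26 and Mrpl42 at -0.44 ± 0.23. Mrpl49, a mitochondria-specific protein of the large subunit, had the lowest adjusted p. It measured 0.25 in Het and 0.17 in cKO of replicate 1, and -0.17 and -0.26 in replicate 2, a difference of -0.43 ± 0.06 (adjusted p = 0.515). Both genotypes thus showed the same replicate difference in this gene, while its genotype difference was -0.09 ± 0.23. Mrps30 (-0.28 ± 0.06) and Mrps25 (-0.20 ± 0.05) were the other lower genes past the unadjusted threshold.

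Higher in replicate 2 were Mrps26 at 0.41 ± 0.13, Mrps6 at 0.28 ± 0.16, Mrps23 at 0.21 ± 0.09, Mrpl1 at 0.19 ± 0.15, Mrps10 at 0.19 ± 0.31 and Mrpl35 at 0.18 ± 0.05. Mrps26, a mitochondria-specific protein of the small subunit, measured -0.09 in Het and -0.30 in cKO of replicate 1 and 0.34 and 0.09 in replicate 2, so its replicates did not overlap. Mrps26 and Mrpl35 were the 2 past the unadjusted threshold. Of the 6 genes, 4 encode small subunit proteins, and Mrpl1 and Mrpl35 belong to the large subunit.

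Both comparisons use the same 4 arrays, so they are given side by side and are not independent. There were 44 genes lower in both cKO and replicate 2, 10 lower in cKO and higher in replicate 2, 16 higher in cKO and lower in replicate 2, and 7 higher in both. The median over the 77 genes was 0.069 for Het replicate 1, -0.015 for Het replicate 2, -0.011 for cKO replicate 1 and -0.067 for cKO replicate 2. Het replicate 1 stood at the top and cKO replicate 2 at the bottom, and the inner arrays, of different genotypes, lay close together. Directly, cKO replicate 1 was lower than Het replicate 2 in 36 of 77 genes, with a median difference of 0.015. The genotype difference within replicate 1 had a median of -0.091 and within replicate 2 of -0.065, with 48 of 77 genes lower in each. The replicate difference within Het had a median of -0.087, with 56 genes lower, and within cKO of -0.10, with 53 lower. Between the outer arrays, cKO replicate 2 was lower than Het replicate 1 in 59 genes (76.6%), with a median of -0.16, against 46.0% of all genes. In 24 genes (31.2%) Het replicate 1 was the highest and cKO replicate 2 the lowest array, against 11.7% of all genes. These outer arrays are the ones whose values were most spread over all probe sets.

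The respiratory chain genes, 77 of 81 listed, had the same arrays at the ends with a wider spread. Their median was 0.13 for Het replicate 1, 0.010 for Het replicate 2, 0.0068 for cKO replicate 1 and -0.17 for cKO replicate 2. The genotype difference had a median of -0.18, with 64 of 77 genes lower and 33 (42.9%) lower without overlap, against 54 and 20 of the ribosome genes and 15.6% without overlap over all genes. The replicate difference also had a median of -0.18, with 65 genes lower, against -0.10 and 60. Het replicate 1 was highest and cKO replicate 2 lowest in 35 respiratory chain genes (45.5%), against 24 ribosome genes, and their difference had a median of -0.35, against -0.16. Between the inner arrays, cKO replicate 1 minus Het replicate 2, the chain genes had a median of -0.012, against 0.015 of the ribosome genes. None of the 77 respiratory chain genes passed the adjusted threshold (limma) in either comparison, and at the unadjusted one 14 were lower and 0 higher between genotypes (background 3.41% and 1.87%) and 12 lower and 0 higher between replicates (background 5.35% and 2.59%). Without cKO replicate 2 the median genotype difference of the chain genes was -0.051 and their replicate difference -0.067. Whether the 2 sets differ in size of shift was not tested.

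By complex, the genotype and replicate medians were -0.18 and -0.18 for 34 genes of complex I, -0.20 and -0.31 for 4 of complex II, -0.14 and -0.11 for 10 of complex III and cytochrome c, -0.12 and -0.15 for 12 of complex IV, and -0.13 and -0.22 for 17 of ATP synthase. Every one of these medians lay below that of the ribosome genes in the same comparison. Ndufb8, a complex I subunit, had the lowest genotype difference of the chain at -0.69 ± 0.22, and Atp5j2, of ATP synthase, followed at -0.62 ± 0.27. Uqcrb of complex III (0.39 ± 0.25) and Atp5j of ATP synthase (0.25 ± 0.15) lay at the other end. Ndufa3 (-0.71 ± 0.27) and Atp5e (-0.65 ± 0.23) were lowest in the replicate comparison, and Ndufs5 (0.29 ± 0.20) and Ndufs4 (0.21 ± 0.12) highest.

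**Figure D4:**
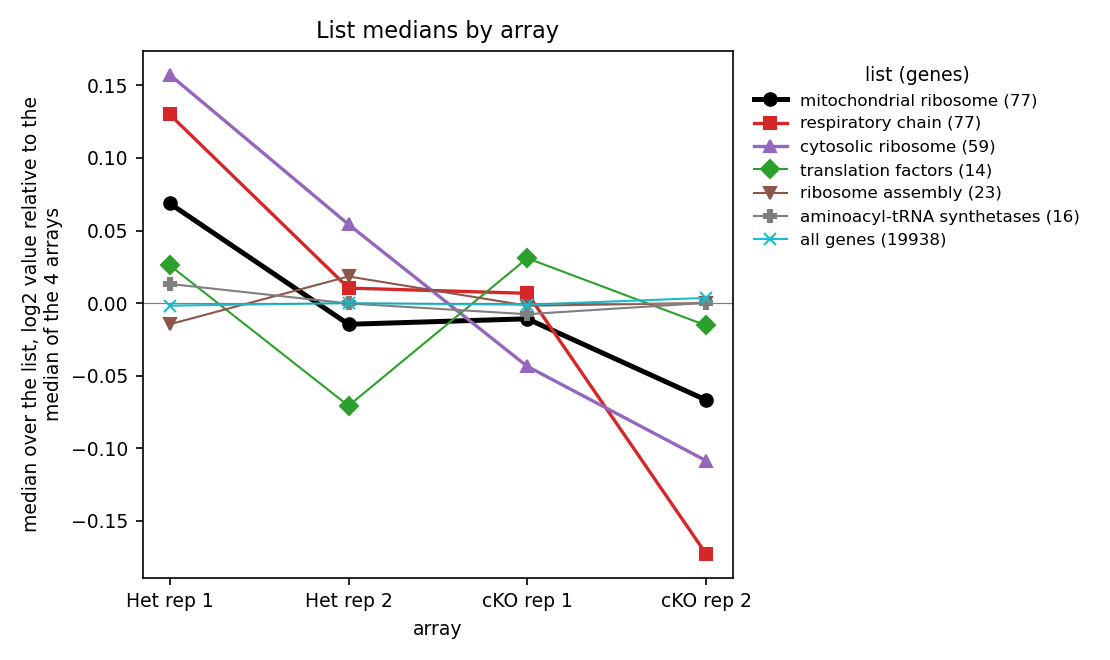
Median log2 value of each list in each of the 4 arrays, relative to each gene's median over the arrays, with lines joining the points of a list and the number of genes in brackets. From Het replicate 1 to cKO replicate 2 the mitochondrial ribosome goes from 0.069 to -0.067 and the respiratory chain from 0.13 to -0.17, while the assembly factors and synthetases lie near 0 in each array.

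The cytosolic ribosomal proteins (59 genes), which belong to the ribosome outside the organelle, had medians of 0.16 and 0.054 in the Het arrays and -0.044 and -0.11 in the cKO arrays. Here both cKO medians lay below both Het medians, unlike the mitochondrial set. Their genotype median was -0.20, with 53 genes lower and 38 (64.4%) lower without overlap, against 15.6% of all genes, and their replicate median -0.10, with 49 lower. Rpl8 (-0.61 ± 0.21) and Rps10 (-0.59 ± 0.25) were lowest in cKO, and Rpl34 (0.21 ± 0.13) and Rpl29 (0.06 ± 0.13) highest. Between replicates Rpl39l (-0.68 ± 0.10) and Rps10 (-0.45 ± 0.31) were lowest, and Rpl29 (0.22 ± 0.06) and Rplp0 (0.15 ± 0.12) highest. Many of these genes have near-identical copies in the genome that the array may not tell apart.

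Other genes that work with the mitochondrial ribosome are given next, list by list. The 14 translation factors, which start, extend and end protein synthesis in the organelle or insert its products in the membrane, had medians of -0.020 between genotypes (11 lower, 0 of them without overlap, against 15.6% of all genes) and -0.088 between replicates (10 lower, 8 of them or 57.1% of the list without overlap, against 17.8% of all genes). The means were -0.045 and -0.14, against -0.082 and -0.11 for the ribosome genes. Mtif2, the initiation factor, measured 0.54 and -0.13 in Het and 0.13 and -0.40 in cKO, which is -0.34 ± 0.33 between genotypes and -0.60 ± 0.19 between replicates. Oxa1l, the insertase, had -0.32 ± 0.26 and -0.46 ± 0.19. Mrrf, the recycling factor, and Guf1 were highest in cKO (0.16 ± 0.12 and 0.12 ± 0.10), and Tufm, the elongation factor, and Mtif3 were highest in replicate 2 (0.13 ± 0.10 and 0.04 ± 0.05).

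The 23 assembly factors, which process ribosomal RNA and help the subunits form, had medians of -0.0067 between genotypes and -0.024 between replicates, with 12 genes lower in each comparison. Gtpbp10, a GTPase of large subunit assembly, measured -0.13 and -0.23 in Het and 0.36 and 0.13 in cKO, a difference of 0.43 ± 0.10 that stood apart from the rest of its list, whose next highest was Mrm3 at 0.09 ± 0.06. Malsu1 (-0.17 ± 0.05) and C1qbp (-0.16 ± 0.17) were lowest in cKO. Between replicates Ngrn (-0.25 ± 0.08) and C1qbp (-0.20 ± 0.16) were lowest, and Fastkd2 (0.21 ± 0.08) and Mettl17 (0.16 ± 0.07) highest.

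The 16 mitochondrial aminoacyl-tRNA synthetases, which charge the transfer RNAs, had medians of -0.024 and -0.0014. Rars2 (-0.22 ± 0.18) and Cars2 (-0.16 ± 0.08) were lowest in cKO, and Hars2 (0.13 ± 0.11) and Iars2 (0.08 ± 0.12) highest. In the replicate comparison Rars2 (-0.24 ± 0.17) and Iars2 (-0.20 ± 0.06) lay at one end and Mars2 (0.14 ± 0.04) and Wars2 (0.12 ± 0.13) at the other. The 13 genes of mitochondrial DNA replication, transcription and RNA processing had medians of -0.020 and 0.022. Ssbp1, which binds single-stranded mitochondrial DNA, had -0.16 ± 0.26 and -0.43 ± 0.15, and Hsd17b10, a subunit of the transfer RNA processing enzyme, -0.16 ± 0.08 and 0.07 ± 0.11. Pnpt1 (0.13 ± 0.08) and Polg2 (0.09 ± 0.19) were highest in cKO. Polrmt, the mitochondrial RNA polymerase, had a replicate difference of -0.13 ± 0.12, while Polg2 (0.35 ± 0.07) and Tefm (0.09 ± 0.07) were highest in replicate 2.

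The 10 regulators of mitochondrial biogenesis, among them the ETS factor Gabpa, had medians of 0.00074 and 0.033. Gabpa itself measured -0.18 and 0.05 in Het and 0.01 and -0.01 in cKO (0.07 ± 0.09 between genotypes, 0.11 ± 0.08 between replicates). Its partner Gabpb2 had -0.13 ± 0.18 and -0.30 ± 0.10, and Pprc1, a coactivator, -0.18 ± 0.05 between replicates. Myc (-0.13 ± 0.06) was low and Ppargc1a (0.14 ± 0.10 in both comparisons) high in cKO. The 4 ribosomal proteins that carry other names, Dap3, Ptcd3, Chchd1 and Gadd45gip1, had genotype differences from -0.14 to 0.12 with a median of -0.033, and a replicate median of 0.011. None of the genes named in these lists passed the adjusted threshold in limma.

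Within the ribosome, the large subunit (50 genes) had medians of -0.075 between genotypes and -0.10 between replicates, with 37 and 41 genes lower. The small subunit (26 genes) had -0.024 and -0.081, with 16 and 18 lower. The 46 genes with bacterial counterparts had medians of -0.041 and -0.096, and the 30 found only in mitochondria -0.089 and -0.13. These splits were not tested against each other. The SD of a gene over the 4 arrays had a median of 0.147 in the ribosome genes and 0.064 in all genes. The 3 genes of the Mrps18 family, whose products sit at different places of the ribosome, had genotype differences of either sign. Each sign turned when a particular array was left out, so none is settled. Mrps18a had -0.14 ± 0.16 between genotypes, Mrps18b 0.15 ± 0.13 and Mrps18c -0.04 ± 0.18, all with overlapping groups. Between replicates they had -0.01 ± 0.17, -0.15 ± 0.13 and -0.27 ± 0.11.

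The 8 genes with 2 probe sets had lower medians (-0.30 and -0.26) than the 69 with 1 (-0.046 and -0.098). The probe sets of Mrpl23 gave -0.57 and -0.59 between genotypes and those of Mrps36 -0.41 and -0.39, so near that each pair may read the same or copied sequence, and they are no independent measurements. For Mrpl27, whose product reaches the peptidyl transferase centre, the probe sets gave -0.55 and -0.24, for Mrps33 -0.34 and -0.27, and for Mrpl41 -0.12 and -0.41. For Mrpl51 they disagreed, with -0.53 and -0.04, and cKO replicate 2 stood at -0.67 on the first and -0.08 on the second. Those of Mrps5 also disagreed, with 0.14, where both cKO arrays lay above both Het arrays, and -0.00053. Those of Mrpl47 gave -0.029 and 0.019. Copies and pseudogenes of these genes elsewhere in the genome cannot be told apart from the genes here.

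**Figure D5:**
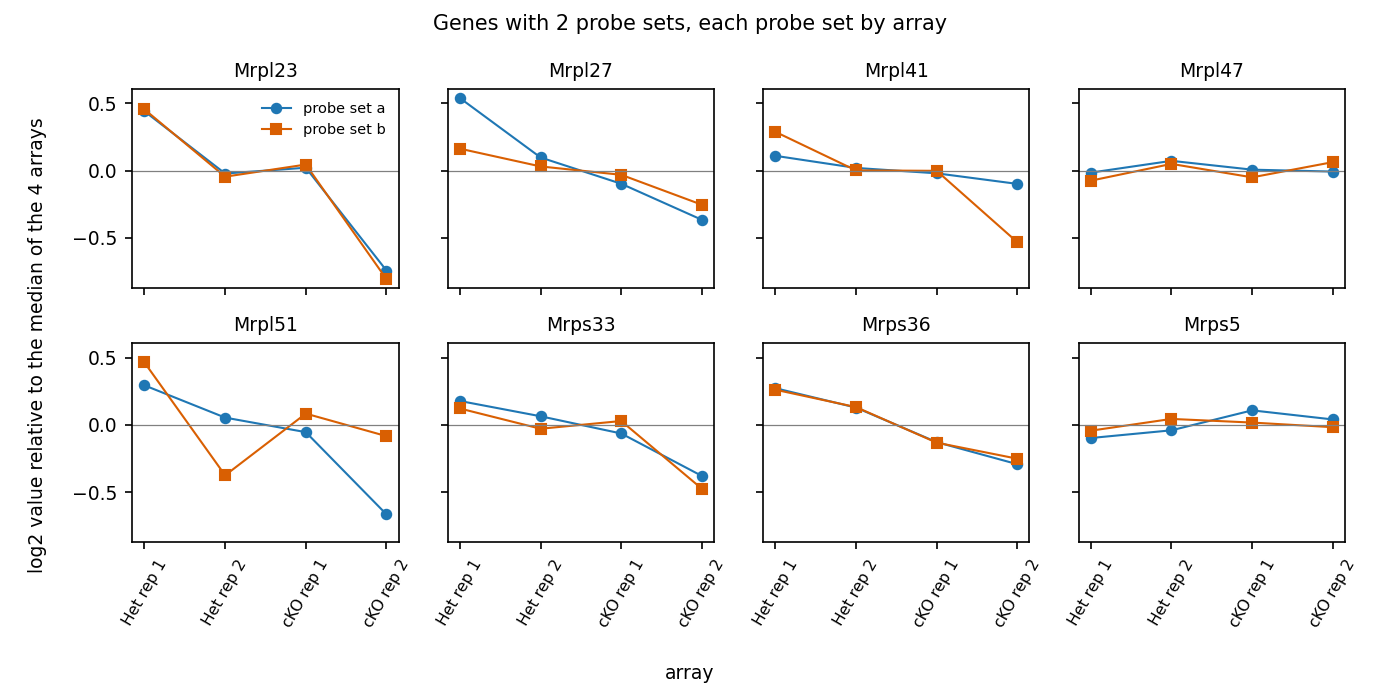
Log2 values of each probe set by array, relative to its median over the 4 arrays, for the 8 genes with 2 probe sets, 1 panel per gene and 1 line per probe set. The lines of Mrpl23 and of Mrps36 lie on each other, and those of Mrpl51 part in Het replicate 2 and cKO replicate 2.

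Genes with the ETS core shown above (25) had a genotype median of -0.11, with 19 lower, and a replicate median of -0.15. Those with a window and without the core (43) had -0.023, with 28 lower, and -0.064. The 8 genes with the NRF1 core had a genotype median of 0.0059, with 3 lower, and a replicate median of -0.077, and the 60 without it -0.072, with 44 lower, and -0.11. The 13 with the YY1 core had a genotype median of -0.075, with 8 lower, and a replicate median of -0.064, and the 55 without it -0.046, with 39 lower, and -0.11. These are descriptions, with no test, and the sets share genes.

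Of the 68 genes with a window, 26 (38.2%) started within 1000 bases of a gene that runs the other way, against 14.4% of genes on the array and 31.8% of respiratory chain genes. Mrpl46 and Mrps11 face each other across 42 bases, with genotype differences of -0.11 ± 0.12 and -0.03 ± 0.12. Over the 22 pairs with a measured partner outside the set, the ribosome genes had a genotype median of -0.099 and their partners -0.021, and a replicate median of -0.14 against -0.048. The partner had the smaller genotype difference in size in 15 of the 22. Mrpl27 (-0.39) faces Eme1, a DNA repair nuclease subunit (0.06), and Mrpl50 (-0.49) faces Zfp189 (-0.05). Mrps12 (-0.29) faces Sars2, the mitochondrial seryl-tRNA synthetase (-0.0020). The reverse was seen for Mrpl49 (-0.09), whose partner Fau, a cytosolic ribosomal protein gene, had -0.42. The 2 genes of a pair differed in the same direction in 14 of the 22 between genotypes and in 17 between replicates.

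The genes outside the set whose 4 values lay nearest to the median profile of the 77 genes (smallest Euclidean distance over 4 arrays) were Ttc13 (0.021), Bard1 (0.022), Cep20, Spen and Fbxo2 (each 0.023). With 4 arrays and 19938 genes, such nearness is a description only.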

How the data were processed

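Total RNA of 4 sorted samples, 2 Sox2 Het and 2 Sox2 cKO, was measured on 1 array each. The values were made with RMA, per the submitters' processing notes. The deposited log2 values are centred on the median of each probe set over the 4 arrays; the log base is not given in the sources used here and was taken as log2, and levels and background cannot be recovered. Of 28853 probe sets, 21789 name 1 gene in the platform annotation, 1621 several and 5443 none. Probe sets of 1 gene were averaged to 19938 genes. limma 3.58.1 (lmFit and eBayes in R 4.3.3) compared cKO with Het and replicate 2 with replicate 1. Each fit used the 4 arrays with 2 residual degrees of freedom, with Benjamini-Hochberg adjustment over all genes. A run on simulated data required only that the mean estimates lie near the planted shifts. It set no requirement on the calls. An exact permutation test of 2 arrays against 2 cannot go below p = 0.333, so none was used. The genes described and the lists were chosen with earlier results of these data known. Named genes were the 6 lowest and 6 highest of each comparison, those with several probe sets, and Mrps36, the Mrps18 family, Mrpl12, Mrpl41, Mrps12 and Mrpl58, and of each other list the 2 lowest and 2 highest. Outside this rule, Mrpl55, Mrpl49, Mrps30 and Mrps25 were named for passing the unadjusted threshold, and Mrpl46 and Mrps11 for facing each other. Promoters came from RefSeq (GRCm38.p6).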

Additional observations from a re-analysis of the deposited data

How the results depend on the processing

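Counts of adjusted calls among the ribosome genes stayed at 0 in both comparisons under every alternative run: array centring, quantile normalization, single probe sets, probe sets of several genes, a robust prior, no moderation, the least variable genes left out (SD below the 0.25 quantile), blocks, and each array left out in turn. With the least variable genes left out, 1 gene outside the set passed between genotypes. In the main fits no gene on the array passed, Sox2 included. A count of 0 therefore does not show that the ribosome genes were unchanged. Of 259 values of single ribosome genes under the alternatives other than leaving out an array, 258 kept their direction and none passed the threshold. This count says little, because the robust prior, no moderation, the blocks and leaving out other genes cannot change a gene's difference. Only the remaining alternatives could turn a direction. Mrps18c turned to 0.027 between genotypes under quantile normalization. Mrpl55, Mrpl49, Mrps30 and Mrps25 were not among the genes followed in this way. Leaving out 1 array in turn, the genotype median of the ribosome genes ranged from -0.11 to -0.0061 and that of the respiratory chain from -0.26 to -0.051. The replicate medians ranged from -0.15 to -0.058 and from -0.26 to -0.067. Genes without overlap then ranged from 27 to 44 lower and 12 to 24 higher between genotypes, against 30.4% to 33.4% and 31.6% to 38.6% of all genes, and from 29 to 50 and 9 to 15 between replicates, against 31.9% to 33.4% and 34.0% to 39.7%, since 1 array against 2 separates more easily. The 27 genes, found without Het replicate 1, are near the share over all genes. The genotype difference ranged from -0.058 to 0.048 for Mrpl47, -0.29 to 0.0099 for Mrps18a, -0.014 to 0.31 for Mrps18b and -0.26 to 0.19 for Mrps18c, and the replicate difference of Mrps10 from -0.18 to 0.55. With the replicate block the genotype median was -0.070 and 0 genes passed; deviations of same-numbered arrays correlated at 0.30 over all genes, but 2 pairs do not show that the numbers pair the samples. The number of arrays and the unknown signal over background limit the precision.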
